A study of Mus musculus with 4 samples.

Results

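Double-strand breaks are among the most dangerous lesions in DNA, and a cell repairs them by a handful of routes. Broken ends are first caught and trimmed, kinases and chromatin marks signal the break, and the ends are then copied from an intact sister by homologous recombination or joined directly, either by classical end joining with the Ku proteins or by theta-mediated end joining at short repeats. Spermatogonia, the dividing germ cells of the testis, use these routes after replication and damage, and their descendants later use many of the same proteins to repair the breaks of meiosis. The 38 genes described here encode proteins of these routes. They are a list of named genes with no threshold on their values, drawn up with earlier results of these libraries known, and all 38 were found among the 78275 genes of the count table. They fall into 5 roles, with 6 genes for break ends and resection, 10 for break signalling, 14 for homologous recombination, 6 for classical end joining and 2 for theta-mediated end joining.

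The values come from bulk RNA-seq of testis cells enriched for spermatogonia from mice at postnatal day (Pnd) 5. There were 2 Sirt7-/- libraries and 2 WT libraries, both from mice of the 129S1/Sv background, with no treatment in either group. The Sirt7-/- mice lack SIRT7, a nuclear NAD-dependent deacetylase, and no Cre or other restriction to one cell type is named for the allele, so somatic cells would lack it too. Each library came from a frozen pellet of 200000 cells, and the study asked whether transcription differs between the genotypes. How many mice gave each pellet is not given in the sources used here. The labels only number the replicates whereas the study calls them biological, so the p-values rest on the spread of these samples.

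Depth was nearly equal, with total counts of 22181066 and 22048692 in the Sirt7-/- libraries, against 22007504 and 22114233 in the WT libraries. Sirt7 itself was at 129 and 122 counts in the Sirt7-/- libraries, against 704 and 692 in the WT libraries, in accord with the labels (log2 fold change -2.47 with an SE of 0.11 and a Benjamini-Hochberg adjusted p of 3.63e-06 in edgeR's quasi-likelihood test). The labelled cell type was checked by its markers. Zbtb16, which encodes the spermatogonial factor PLZF, averaged 267 CPM (counts scaled to a common library total) in Sirt7-/- and 272 CPM in WT. The germ cell gene Dazl averaged 612 CPM in Sirt7-/- and 622 CPM in WT. Not all such markers were as even. Of 10 markers of undifferentiated spermatogonia, 8 log2 fold changes were negative and 2 positive, with a median of -0.097. Etv5 was at -0.21 and Utf1 at 0.47, and 0 of the 10 were called at an adjusted p under 0.1 (edgeR). Among 7 germ cell markers tested, 1 log2 fold change was positive and 6 negative, with a median of -0.056, and 0 were called. Sertoli cells, the somatic nurse cells of the tubule, were also present, since their gene Clu averaged 1120 CPM in Sirt7-/- and 1048 CPM in WT. Its direction was not that of most of its list. Among 12 Sertoli markers, 5 log2 fold changes were positive and 7 negative, with a median of -0.019, and 0 were called. In such bulk samples fewer cells of a type and less RNA per cell cannot be told apart. The Sirt7-/- libraries stood further apart from each other than the WT libraries did, with a chi-square per gene of 7.59 in the Sirt7-/- pair and 3.48 in the WT pair. Pairs across the genotypes were about as far apart as the Sirt7-/- pair. They ran from 7.19 for Sirt7-/- replicate 2 with WT replicate 2 to 7.95 for Sirt7-/- replicate 1 with WT replicate 2. Counts and medians over the 38 genes, and the fold changes of the genes that differed most, are therefore also given without each of the Sirt7-/- libraries.

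The break repair genes were all expressed, at levels that spanned a 143-fold range. Levels were compared between genes as CPM per kilobase of each gene's canonical transcript, averaged over the 4 libraries. By this measure the median of the 38 genes was 8.35 CPM per kb, against 4.10 CPM per kb over the 19736 genes tested, and 29 of the 38 lay above that median. The 38 genes all encode proteins, whereas the genes tested were not limited to protein-coding genes, so the sets are not alike. Counts ran from 61 to 14840 per gene and library, and 37 of the 38 genes had over 100 counts in every library.

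Parp1 stood at the top. This gene (ENSMUSG00000026496.12) encodes the abundant poly(ADP-ribose) polymerase that binds broken DNA and also serves theta-mediated end joining, and it lies on chromosome 1 from 180396443 to 180431307 (GRCm39). Its level was 174 and 159 CPM per kb in the Sirt7-/- libraries, against 163 and 169 CPM per kb in the WT libraries. Rpa2 and Rpa1, which encode subunits of the replication protein A that coats single-stranded DNA, averaged 110 and 31.3 CPM per kb over the 4 libraries, and the third subunit gene, Rpa3, 15.9 CPM per kb. H2ax, whose histone product is phosphorylated around a break, averaged 40.4 CPM per kb, and Xrcc6, which encodes the Ku70 subunit of the Ku ring that threads onto broken ends, 35.7 CPM per kb. The partner gene of Ku70, Xrcc5, encodes Ku80 and averaged 13.6 CPM per kb.

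The genes of the BRCA proteins, the large kinases and the strand-exchange complexes lay lower. Brca1 averaged 10.5 CPM per kb, Brca2 4.29 CPM per kb and Palb2, whose product bridges the BRCA1 and BRCA2 proteins, 6.80 CPM per kb. Of the kinase genes, Atr averaged 7.39, Atm 5.65 and Prkdc 3.82 CPM per kb, with no overlap between their libraries. The polymerase gene of theta-mediated end joining, Polq, averaged 2.84 CPM per kb. Rad51d and Rad51b, which encode subunits of complexes that assist strand exchange, were lowest, at 1.24 and 1.16 CPM per kb. The order was coarse: of 37 neighbouring pairs in it, 27 had overlapping ranges over the 4 libraries. Parp1, Rpa2, H2ax and Rpa1 were each separated from the next gene down. The order also turned on the length used. A measure chosen after the values were seen took all annotated exons of a gene in place of its canonical transcript. By it Xrcc4 was lowest at 0.476 CPM per kb, Rad51b came 37 of 38, Rad51d 34 and Rbbp8 21 in place of 9. The kinase genes changed order, with Atm at 4.76, Prkdc at 3.65 and Atr at 2.84 CPM per kb. Palb2, at 2.80, fell below Brca2, at 3.50 CPM per kb. Parp1, Rpa2 and H2ax remained the top 3.

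**Figure D1:**
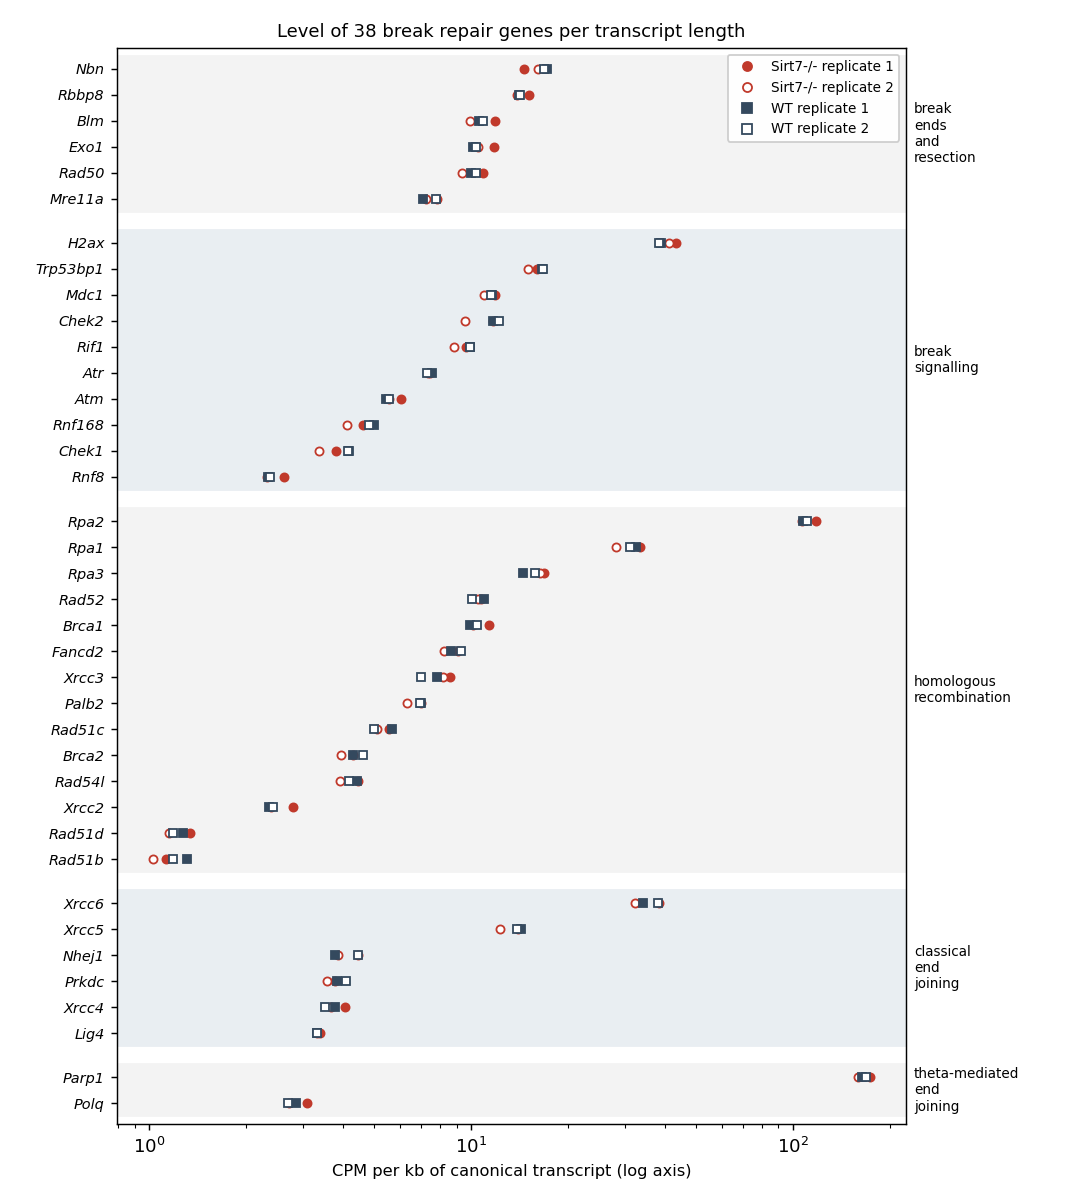
Level of each of the 38 break repair genes in each library, in CPM per kilobase of canonical transcript on a log axis, by role; filled and open red circles are Sirt7-/- replicates 1 and 2, filled and open dark squares WT replicates 1 and 2. The 4 libraries of a gene lie close together while genes range from Rad51b at 1.16 to Parp1 at 166 CPM per kb (means of 4).

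No break repair gene was called different between the genotypes. At an adjusted p under 0.1, edgeR's quasi-likelihood test called 0 of the 38, where 17 of all 19736 genes (0.0861%) were called. DESeq2 and limma-voom also called 0 of the 38. At an unadjusted p under 0.05 there was 1 of the 38 with edgeR, against 8.62% of all genes, and 1 with limma-voom, against 8.72%. With DESeq2, run without the filter on low counts, there were 0 of the 38, against 1.53% of all genes. The smallest adjusted p among the 38 was 0.554 with edgeR. Fold changes were small on both sides of 0, with 20 positive and 18 negative, from -0.21 for Chek1 to 0.17 for Xrcc3 on the log2 scale. Their median was 0.0031, beside 0.0029 for all genes tested. The 95% interval of the fold change lay within 0.5 of 0 for 37 genes, the exception being Rad51b. The interval reached 0.14 to 0.43 to either side of the estimate, with a median of 0.20. Changes within that reach, and some beyond it, could go uncalled, since a call needed an adjusted p under 0.1 over all 19736 genes. The interval of Chek1, at -0.21, left out 0, yet its adjusted p was 0.554 (edgeR).

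**Figure D2:**
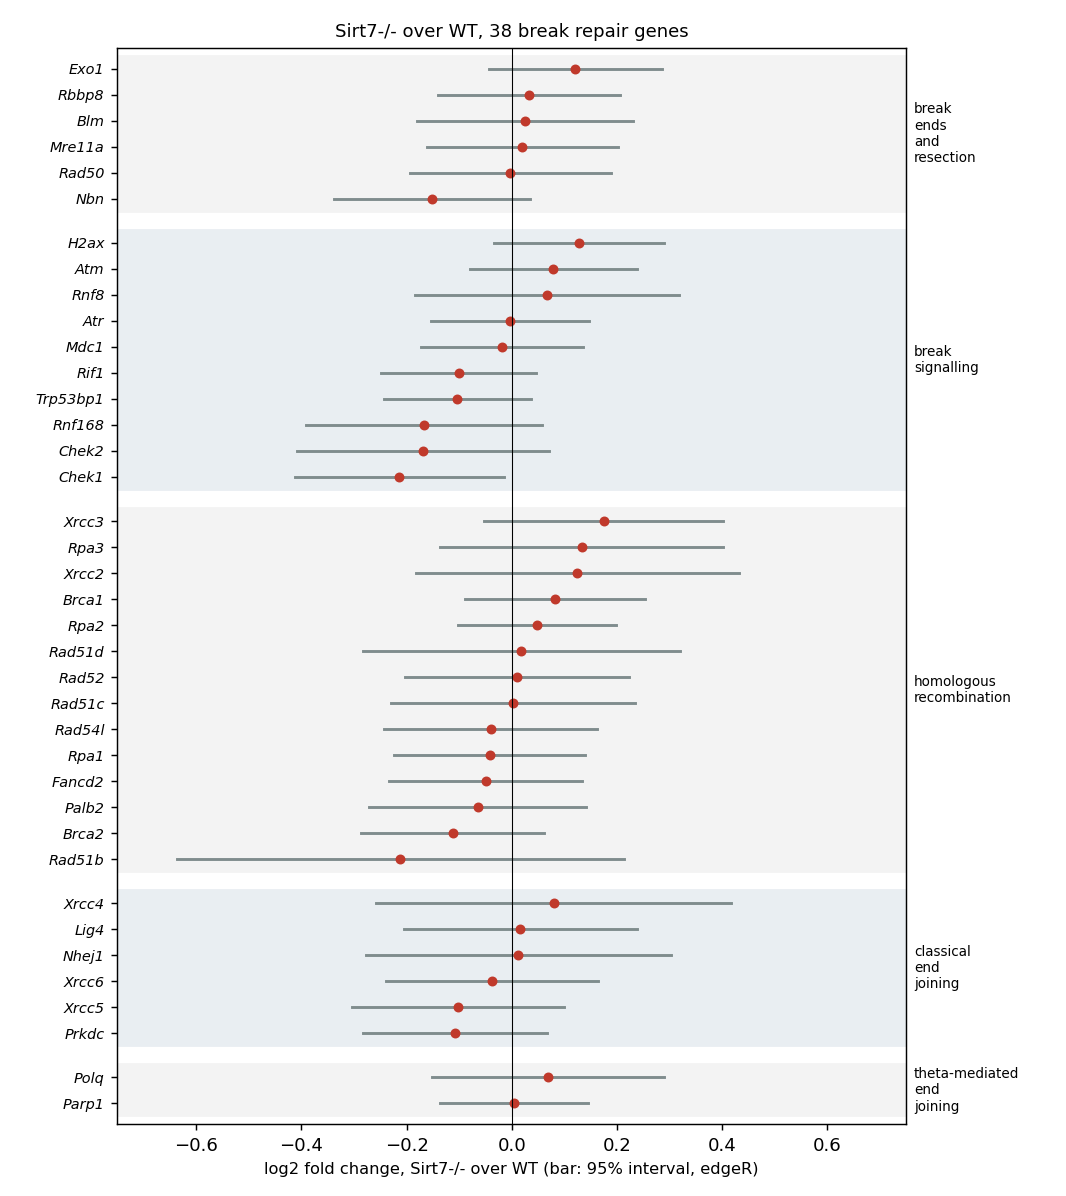
Log2 fold change of each break repair gene, Sirt7-/- over WT, by role; points are edgeR estimates and bars 95% intervals (2 libraries per genotype). Every interval but that of Chek1 includes 0, and values run from -0.21 for Chek1 to 0.17 for Xrcc3.

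Both Sirt7-/- libraries lay above both WT libraries for 6 of the 38 genes, Exo1, Atm, H2ax, Xrcc3, Rpa3 and Lig4, where 20.3% of all genes did so. Both lay below for 8 genes, Nbn, Chek1, Rnf168, Trp53bp1, Rif1, Brca2, Rad51b and Prkdc, where 19.4% of all genes did so. The 6 genes are 15.8% of the list and the 8 are 21.1%, near the shares over all genes. The libraries of the 2 genotypes overlapped for the other 24 genes.

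Among the genes that act first at a break end, the largest differences had opposite signs. MRE11, RAD50 and NBS1 form the complex that tethers the ends and starts trimming, with NBS1 encoded by Nbn (chromosome 4, 15957896 to 15993588). Nbn had 811 and 897 counts in the Sirt7-/- libraries, against 962 and 944 in the WT libraries. Both Sirt7-/- libraries were below both WT libraries, and the log2 fold change was -0.15 ± 0.08 (± SE throughout) at an adjusted p of 0.652 (edgeR). Its partners did not share that difference: Mre11a was at 0.02 ± 0.08 and Rad50 at -0.0023 ± 0.087. Exo1, which encodes the exonuclease that extends the trimmed strand, had 2015 and 1797 counts in the Sirt7-/- libraries, against 1739 and 1784 in the WT libraries. The Sirt7-/- libraries were both above, replicate 2 by a small margin, and the log2 fold change was 0.12 ± 0.07 (adjusted p = 0.689, edgeR). Rbbp8, whose product CtIP switches MRE11 on, had 1202 and 1098 counts in the Sirt7-/- libraries, against 1123 and 1136 in the WT libraries, which lay between them. The helicase gene Blm was at 0.02 ± 0.09.

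Break signalling held the lowest median of the 5 roles, at -0.06 on the log2 scale with 3 of 10 genes above 0, and the 1 gene past an unadjusted p of 0.05. That gene was Chek1, the checkpoint kinase that ATR activates at stalled forks and resected ends (chromosome 9, 36614487 to 36638361). It had 724 and 644 counts in the Sirt7-/- libraries, against 797 and 797 in the WT libraries. The WT libraries were alike and both Sirt7-/- libraries were below them, with a log2 fold change of -0.21 ± 0.09 (95% interval -0.41 to -0.015) and an adjusted p of 0.554 with edgeR. Left out in turn, the libraries gave values from -0.30 to -0.13. Chek2, the kinase of the ATM branch, had 596 and 486 counts in the Sirt7-/- libraries, against 595 and 627 in the WT libraries. Here Sirt7-/- replicate 2 alone was low, and replicate 1 was beside WT replicate 1 (log2 fold change -0.17 ± 0.11; adjusted p = 0.699, edgeR). The apical kinase genes Atm and Atr were at 0.08 ± 0.07 and -0.0032 ± 0.068.

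In the chromatin arm of the signal, H2ax and Trp53bp1 lay on opposite sides of 0. H2ax (chromosome 9, 44245991 to 44247374) had 1312 and 1255 counts in the Sirt7-/- libraries, against 1185 and 1175 in the WT libraries. The groups did not overlap, and the log2 fold change of 0.13 ± 0.07 had an adjusted p of 0.655 with edgeR. Trp53bp1, whose product 53BP1 shields ends from trimming, had 3384 and 3179 counts in the Sirt7-/- libraries, against 3523 and 3560 in the WT libraries. Its log2 fold change of -0.10 ± 0.06 lay beside that of Rif1, its effector, at -0.10 ± 0.07 (adjusted p = 0.688 and 0.708, edgeR). Mdc1, whose product reads phosphorylated H2AX, had 1917 and 1770 counts in the Sirt7-/- libraries, with the WT libraries between them at 1877 and 1874. The ubiquitin ligase genes that act after it, Rnf8 and Rnf168, were at 0.07 ± 0.11 and -0.17 ± 0.10.

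Homologous recombination had 8 genes above 0 and 6 below. Xrcc3, whose product works in a complex with that of Rad51c, on chromosome 12 from 111769626 to 111780327, had 466 and 444 counts in the Sirt7-/- libraries, against 427 and 383 in the WT libraries. The Sirt7-/- libraries were above both WT libraries, by a log2 fold change of 0.17 ± 0.10 (adjusted p = 0.672, edgeR). Of the exon bases of Xrcc3, 43.4% are shared with Klc1 on the opposite strand, so its count is uncertain if strand was not used in counting. The same holds for 22.2% of the exon bases of Rad54l, shared with Lrrc41, 17.9% of Trp53bp1, shared with Tubgcp4, and 12.3% of Brca2, shared with N4bp2l1. It also holds for H2ax, with 14.4% of its exon bases shared with Gm48853 and 10.2% with Gm55497. On the same strand, Rnf8 shares 9.93% with Gm28043, which the use of strand would not separate. Rad51b (chromosome 12, 79343212 to 79861464), had 67 and 61 counts in the Sirt7-/- libraries, against 78 and 71 in the WT libraries. These were the fewest counts of the 38 genes, and the log2 fold change of -0.21 ± 0.19 had the widest interval, from -0.64 to 0.21 (adjusted p = 0.792, edgeR).

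The other genes of these complexes lay nearer to 0 or had wide errors, with Rad51c at 0.0021 ± 0.11, Rad51d at 0.02 ± 0.14 and Xrcc2 at 0.12 ± 0.14. Brca1, which is nearest to Sirt7 of the 5 genes of the list on chromosome 11, lies 19.1 Mb before it and was at 0.08 ± 0.08. Brca2, whose product prepares trimmed ends for strand exchange, was at -0.11 ± 0.08 and Palb2 at -0.065 ± 0.094. The subunit genes of replication protein A were at -0.04 ± 0.08 for Rpa1, 0.05 ± 0.07 for Rpa2 and 0.13 ± 0.12 for Rpa3. Rpa1 had 3968 and 3321 counts in the Sirt7-/- libraries, against 3842 and 3698 in the WT libraries, and Rpa2 had 4705 and 4232 counts in the Sirt7-/- libraries, against 4268 and 4418 in the WT libraries. In both genes Sirt7-/- replicate 1 was the highest library and Sirt7-/- replicate 2 the lowest. Rad52, Rad54l and Fancd2, which serve annealing, strand exchange and crosslink repair, were at 0.01 ± 0.10, -0.04 ± 0.09 and -0.05 ± 0.08.

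In classical end joining the Ku genes did not separate the genotypes. Xrcc5 had 786 and 690 counts in the Sirt7-/- libraries, against 804 and 787 in the WT libraries, a log2 fold change of -0.10 ± 0.09 that came mainly from Sirt7-/- replicate 2 (adjusted p = 0.792, edgeR; -0.0068 without that library). Xrcc6 had 1783 and 1498 counts in the Sirt7-/- libraries, against 1597 and 1786 in the WT libraries. The groups overlapped, and the log2 fold change was -0.04 ± 0.09. Prkdc, which encodes the kinase that Ku recruits, had 1049 and 993 counts in the Sirt7-/- libraries, against 1065 and 1147 in the WT libraries, and was at -0.11 ± 0.08 (adjusted p = 0.738, edgeR). Lig4, the ligase gene of this route, was at 0.02 ± 0.10, Xrcc4, whose product is the scaffold partner of that ligase, at 0.08 ± 0.15 and Nhej1, which encodes XLF, at 0.01 ± 0.13.

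For theta-mediated end joining, Polq had 585 and 513 counts in the Sirt7-/- libraries, against 539 and 513 in the WT libraries, and Parp1 had 14840 and 13615 counts in the Sirt7-/- libraries, against 13966 and 14544 in the WT libraries. Sirt7-/- replicate 1 was the highest library for both genes. The log2 fold changes were 0.07 ± 0.10 and 0.0042 ± 0.064.

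The plainest pattern in the list was between the 2 Sirt7-/- libraries and not between the genotypes. Of the 38 genes, 37 were higher in Sirt7-/- replicate 1 than in Sirt7-/- replicate 2, all but Nbn, where 47.8% of all genes tested were. Among the 10057 genes with a mean of 10 CPM or more, 5384 (53.5%) were higher in replicate 1. The median difference of the 38 genes was 0.14 on the log2 scale, beside 0.01 for those 10057 genes, and single genes ran from -0.15 for Nbn to 0.29 for Chek2. In the WT pair, 18 of the 38 were higher in replicate 1, where 50.7% of all genes tested were, and the median difference was -0.0047.

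**Figure D3:**
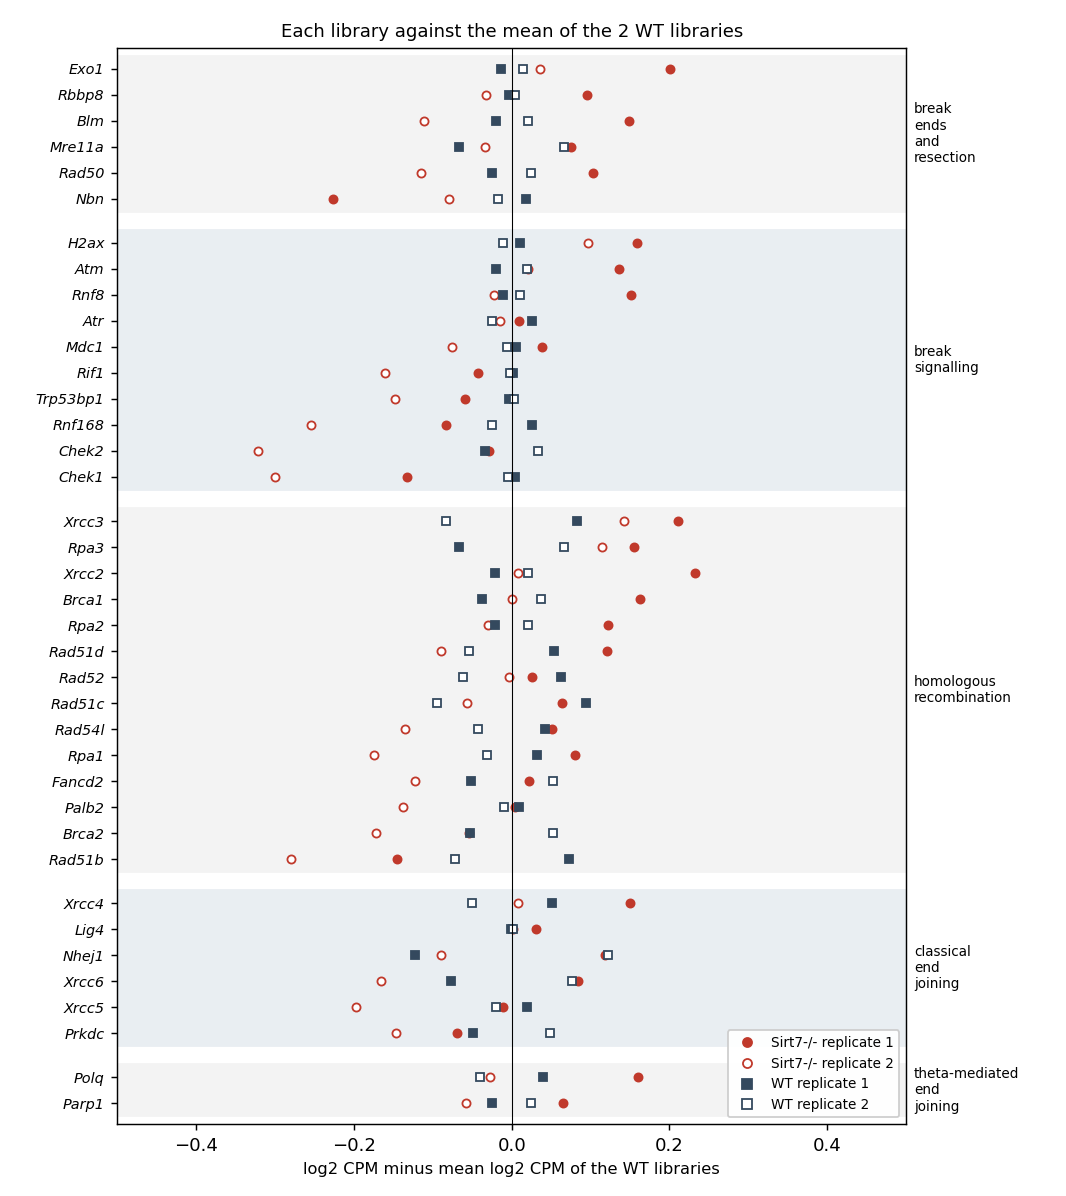
Level of each break repair gene in each library as log2 CPM minus the mean of the 2 WT libraries, by role; filled and open red circles are Sirt7-/- replicates 1 and 2, filled and open dark squares WT replicates 1 and 2. Sirt7-/- replicate 1 lies to the right of Sirt7-/- replicate 2 for 37 of 38 genes, all but Nbn.

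For many of the genes this difference went past counting error. The ratio of replicate 1 to replicate 2 had a 95% exact Clopper-Pearson interval that left out 1 for 21 of the 38 genes in the Sirt7-/- pair, 20 of them above 1, and for 4 in the WT pair, 1 of them above 1. Over all 19736 genes tested the interval left out 1 for 26.7% in the Sirt7-/- pair and 16.4% in the WT pair. Among the 10057 genes with a mean of 10 CPM or more, whose counts are nearer to those of the 38, it did so for 42.4% in the Sirt7-/- pair, 23.2% above 1, and for 24.8% in the WT pair, 12.4% above 1. These intervals cover counting error only. Rpa1 had a ratio of 1.19 in the Sirt7-/- pair (1.14 to 1.25), Xrcc6 1.19 (1.11 to 1.27), Blm 1.20 (1.10 to 1.30), Chek2 1.23 (1.09 to 1.38) and Parp1 1.09 (1.06 to 1.11). All 5 roles took part, with every gene of break signalling, homologous recombination, classical end joining and theta-mediated end joining higher in replicate 1, and 5 of the 6 for break ends and resection.

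The genotype values moved with this pair. The direction of these shifts follows by arithmetic from the difference within the pair and is no further result. With Sirt7-/- replicate 1 left out, 8 of the 38 log2 fold changes were positive and their median was -0.08. With Sirt7-/- replicate 2 left out, 28 were positive and the median was 0.07. In neither case was any of the 38 called by edgeR, and the smallest adjusted p was 0.430 and 0.183 in the 2 cases. At an unadjusted p under 0.05 there were 6 of the 38 without replicate 1, where 10.2% of all genes were, and all 6 were lower in Sirt7-/-: Chek1, Chek2, Rnf168, Trp53bp1, Rif1 and Rpa1. Without replicate 2 there were 4, where 13.7% of all genes were, with Exo1, Brca1 and Rpa2 higher in Sirt7-/- and Nbn lower.

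Single genes moved as much. Without Sirt7-/- replicate 1 the log2 fold change was -0.30 for Chek1, -0.32 for Chek2, -0.16 for Rif1, -0.15 for Trp53bp1, -0.15 for Prkdc, -0.20 for Xrcc5 and -0.080 for Nbn. Without Sirt7-/- replicate 2 it was -0.13 for Chek1, -0.025 for Chek2, -0.038 for Rif1, -0.055 for Trp53bp1, -0.066 for Prkdc, -0.0068 for Xrcc5 and -0.22 for Nbn. Nbn was thus the one of these 7 whose difference from WT was smaller without replicate 1. Of the genes above 0, Exo1 was at 0.036 without replicate 1 and 0.20 without replicate 2, H2ax at 0.096 and 0.16, and Xrcc3 at 0.14 and 0.21 in the same order.

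Other gene lists differed between the same libraries. Summed over the 38 genes, the level was 2662 and 2420 CPM in the Sirt7-/- libraries, against 2540 and 2582 CPM in the WT libraries. Of 25 proliferation genes, 24 were higher in Sirt7-/- replicate 1 than in replicate 2, with a median log2 difference of 0.17. Their sum was 3686 and 3194 CPM in the Sirt7-/- libraries, against 3405 and 3332 CPM in the WT libraries. Between the genotypes 21 of their log2 fold changes were positive and 4 negative, with a median of 0.072, and 0 were called (edgeR). Top2a, the topoisomerase of dividing cells, was at 335 and 278 CPM in the Sirt7-/- libraries, against 324 and 318 CPM in the WT libraries, and the replication helicase gene Mcm2 at 334 and 283 CPM in the Sirt7-/- libraries, against 307 and 301 CPM in the WT libraries. Among germ cell markers 6 of 7 were higher in Sirt7-/- replicate 1, with sums of 1882 and 1712 CPM in the Sirt7-/- libraries, against 1771 and 1882 CPM in the WT libraries. An eighth, Nanog, did not pass the filter on low counts. Among markers of undifferentiated spermatogonia 9 of 10 were higher in Sirt7-/- replicate 1, with a median log2 difference of 0.26. Markers of differentiating spermatogonia were higher in replicate 1 for 5 of 6, with a median of 0.046. Red blood cell markers were higher in Sirt7-/- replicate 1 for 5 of 5, with a median of 0.38 and sums of 1536 and 1152 CPM in the Sirt7-/- libraries, against 1017 and 924 CPM in the WT libraries. All 5 were above both WT libraries in both Sirt7-/- libraries and had an unadjusted p under 0.05 (edgeR), and 0 were called.

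Sertoli cell markers went the other way. Of 12, 1 was higher in Sirt7-/- replicate 1 than in replicate 2, the median log2 difference was -0.31, and the sums were 2309 and 2894 CPM in the Sirt7-/- libraries, against 2623 and 2540 CPM in the WT libraries. Clu was at 943 and 1297 CPM in the Sirt7-/- libraries, against 1046 and 1050 CPM in the WT libraries. Of 10 stromal and peritubular markers 1 was higher in Sirt7-/- replicate 1, with a median log2 difference of -0.21. Their sums were 1381 and 1682 CPM in the Sirt7-/- libraries, against 1495 and 1682 CPM in the WT libraries. This list also differed between the genotypes. Of the 10 log2 fold changes, Sirt7-/- over WT, 4 were positive and 6 negative, down to -1.47. With edgeR 3 of the 10 were called lower in Sirt7-/- and 0 higher, where 17 of all 19736 genes were called. Divided by the germ cell sum, one of several ratios chosen after the values were seen, the sum of the 38 genes was 1.41 and 1.41 in the Sirt7-/- libraries, against 1.43 and 1.37 in the WT libraries. Divided by the Sertoli sum it was 1.15 and 0.836 in the Sirt7-/- libraries, against 0.968 and 1.02 in the WT libraries. With other lists the order within the Sirt7-/- pair turned round. Divided by the sum of the undifferentiated spermatogonia markers it was 2.73 and 2.95 in the Sirt7-/- libraries, against 2.56 and 2.80 in the WT libraries, and divided by the proliferation sum it was 0.722 and 0.758 in the Sirt7-/- libraries, against 0.746 and 0.775 in the WT libraries. The part of cell make-up or of cell division in the repair gene values was not tested.

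**Figure D4:**
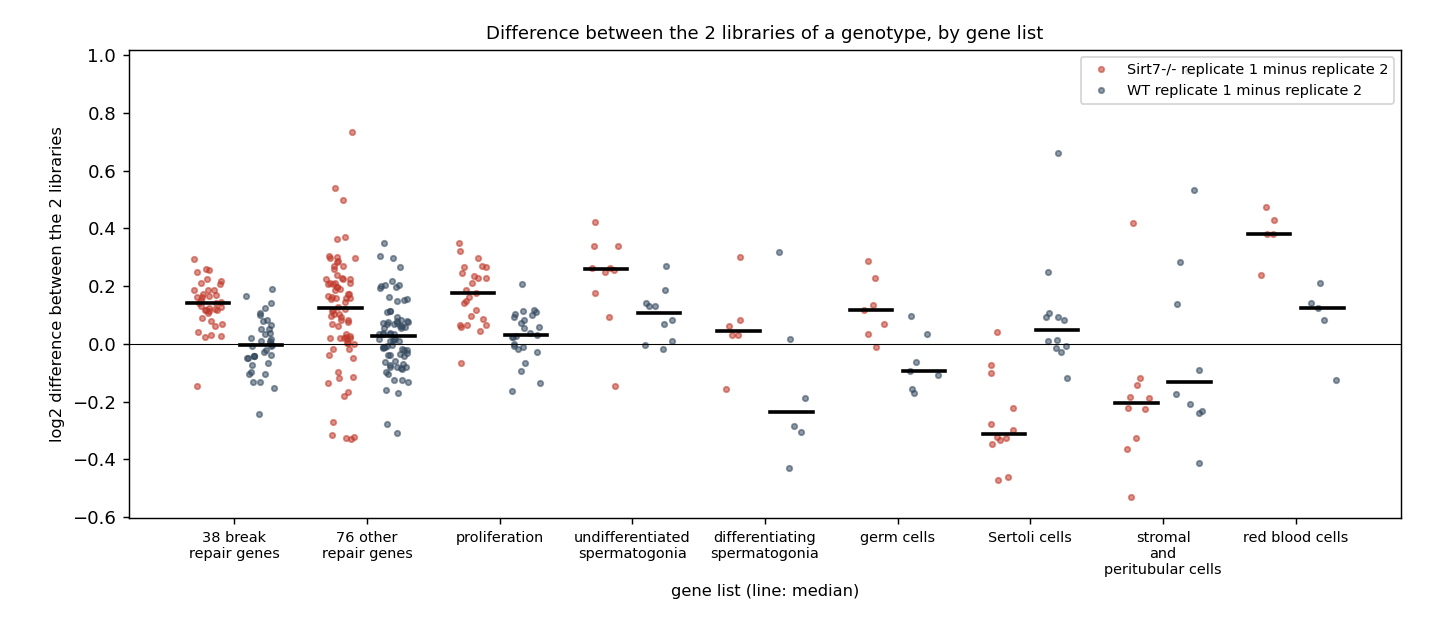
Log2 difference between replicate 1 and replicate 2 of the Sirt7-/- genotype (red) and of WT (dark) for each gene of 9 lists, with black lines at the medians. The 38 break repair genes (median 0.14), the proliferation genes (0.17) and the markers of undifferentiated spermatogonia (0.26) and red blood cells (0.38) lie above 0 in the Sirt7-/- pair, those of differentiating spermatogonia near it (0.046), while Sertoli markers (-0.31) lie below it.

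Other genes of the same pathways were not called either. Of 76 other repair genes on a list drawn up by their roles, 0 were called by edgeR, 39 log2 fold changes were positive and 37 negative, and their median was 0.0059. DESeq2 and limma-voom called 0 of the 76 as well. At an unadjusted p under 0.05 there was 1 of the 76 with edgeR, against 8.62% of all genes, and 1 with limma-voom, against 8.72%. With DESeq2, run without the filter on low counts, there were 0 of the 76, against 1.53% of all genes. With the replicate number as a block, 3 of the 76 were under 0.05, against 10.2% of all genes. With genotype as the only term 0 of the 76 had a p under 0.01 (edgeR), and the gene under 0.05 was Rtel1. It encodes a helicase that dismantles displacement loops. Rtel1 had 1245 and 1137 counts in the Sirt7-/- libraries, against 1402 and 1357 in the WT libraries (log2 fold change -0.21 ± 0.08, adjusted p = 0.501, edgeR). It was at -0.27 without Sirt7-/- replicate 1 and -0.14 without Sirt7-/- replicate 2. In the other roles the smallest p belonged to Rmi1, of the BLM complex, at -0.12 ± 0.09, to Mad2l2, whose shieldin product acts with 53BP1, at 0.23 ± 0.11, to the crosslink gene Ube2t at 0.19 ± 0.10, to Paxx, a partner of Ku, at 0.30 ± 0.15 and to Parp2 at 0.10 ± 0.09. Of the 76 genes, 60 were higher in Sirt7-/- replicate 1 than in replicate 2, with a median log2 difference of 0.13.

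Many break repair genes start close to a gene on the opposite strand. A head-to-head neighbour, a protein-coding gene on the opposite strand whose canonical start lies within 1000 bases, was found for 14 of the 38 genes (36.8%), against 12.3% of 14843 protein-coding genes with 40 or more counts over the 4 libraries. The pairs are Mre11a with Ankrd49, Atm with Npat, Chek2 with Hscb, Brca1 with Nbr1, Palb2 with Dctn5, Rad51b with Zfyve26, Rad51c with Tex14, Xrcc3 with Zfyve21, Rpa1 with Smyd4, Rpa3 with Umad1, Fancd2 with Emc3, Xrcc6 with Desi1, Prkdc with Mcm4 and Xrcc4 with Tmem167. In 4 of the pairs, those of Mre11a, Rpa1, Fancd2 and Xrcc4, the starts point toward each other, so the genes overlap at their starts. None of the 14 neighbours was called by edgeR, and their log2 fold changes ran from -0.15 for Tex14 to 0.30 for Zfyve21. Within the Sirt7-/- pair, 12 of the 14 were higher in replicate 1.

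The members of a pair could differ in sign. Hscb, an iron-sulphur cluster chaperone gene that starts 137 bases from Chek2, had 487 and 428 counts in the Sirt7-/- libraries, against 412 and 412 in the WT libraries. Its log2 fold change of 0.16 ± 0.10 had the opposite sign to that of Chek2, -0.17 ± 0.11. Zfyve26 had 1860 and 1699 counts in the Sirt7-/- libraries, against 1682 and 1800 in the WT libraries. It starts 134 bases from Rad51b and was at 0.04 ± 0.07, beside -0.21 ± 0.19 for Rad51b. Zfyve21, 265 bases from Xrcc3, had 419 and 476 counts in the Sirt7-/- libraries, against 354 and 376 in the WT libraries, and its log2 fold change of 0.30 ± 0.11 (adjusted p = 0.492, edgeR) had the sign of that of Xrcc3. It was 0.39 without Sirt7-/- replicate 1 and 0.21 without Sirt7-/- replicate 2. Hscb was at 0.062 and 0.25 in the same order.

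The stretches between the starts of 4 such pairs are shown because each holds the start region of a gene singled out above, Chek2 and Xrcc6 for their spread in the Sirt7-/- pair, Xrcc3 for the highest fold change and Rad51b for the lowest level. They were read from GRCm39, 5′ to 3′ on the strand of the repair gene, whose start follows the last base. Capitals mark an E2F-type word or a CCAAT box. E2F factors are known to bind such words in front of many genes used in S phase. The stretch of Xrcc6 lies inside the annotated span of that gene, since other transcripts begin further upstream.
Chek2 with Hscb, chr5:110987690-110987825, + strand: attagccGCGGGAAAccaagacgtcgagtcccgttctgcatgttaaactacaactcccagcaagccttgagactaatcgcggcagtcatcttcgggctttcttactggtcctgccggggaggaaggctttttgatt
Xrcc6 with Desi1, chr15:81900425-81900569, + strand: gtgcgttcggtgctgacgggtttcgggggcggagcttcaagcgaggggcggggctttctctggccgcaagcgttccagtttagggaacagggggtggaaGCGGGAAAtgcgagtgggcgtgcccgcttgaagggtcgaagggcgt
Rad51b with Zfyve26, chr12:79343079-79343211, + strand: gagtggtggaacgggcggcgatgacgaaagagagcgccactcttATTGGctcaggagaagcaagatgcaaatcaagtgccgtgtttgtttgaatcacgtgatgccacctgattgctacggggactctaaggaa
Xrcc3 with Zfyve21, chr12:111780328-111780591, - strand: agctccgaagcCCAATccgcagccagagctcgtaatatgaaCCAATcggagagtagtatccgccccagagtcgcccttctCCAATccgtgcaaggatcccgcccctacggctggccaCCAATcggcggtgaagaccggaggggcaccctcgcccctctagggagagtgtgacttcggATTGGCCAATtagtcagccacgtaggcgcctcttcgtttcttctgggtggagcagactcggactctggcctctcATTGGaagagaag

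Brca2, which has no head-to-head neighbour by this measure, carries an E2F-type word of the same letters as Chek2 and Xrcc6. It begins 157 bases before the start and is shown with 20 bases on either side.
Brca2, chr5:150445898-150445945, + strand: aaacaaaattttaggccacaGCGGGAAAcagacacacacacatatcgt

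The words were counted in windows of 250 bases before to 50 bases after the canonical start, on both strands, and words of different motifs may share bases. The E2F-type words were TTTCCCGC, TTTCGCGC, TTTGCCGC and TTTGGCGC. At least 1 of them was in 5 of the 38 windows (13.2%), those of Chek2, Mdc1, Brca2, Rad51c and Xrcc6, against 3.75% of 14830 protein-coding genes with 40 or more counts, 7.89% of the other repair genes and 32% of the proliferation genes. The CCAAT box was in 19 of the 38 windows (50%), against 39.6% of those 14830 genes, and the stretch between Xrcc3 and Zfyve21 held 7 of them. The word TTTGAA, known from cell cycle genes as the CHR element, was in 5 of the 38 windows (13.2%), against 13.6%. A match is a description of the letters and no evidence that a factor binds there.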

How the data were processed

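RNA-seq was measured in 2 Sirt7-/- and 2 WT libraries of Pnd 5 spermatogonia-enriched cells, obtained by differential plating and not by sorting. Per the labels and methods, strand-specific libraries gave paired reads of 150 bp, which the authors aligned to GRCm39 with HISAT2 and counted with featureCounts. The deposited table holds raw counts per gene, 1 column per library. The sources used here name no versions, gene annotation, strand setting or treatment of multi-mapped reads. Overlapping genes may therefore share or lose reads.

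Groups came from the labels. Of 78275 gene identifiers, 78263 matched GENCODE M39, which gave names, positions and canonical transcripts. Genes were kept by filterByExpr (minimum count 10), scaled by TMM and tested in edgeR 4.0.16 (R 4.3.3) by the quasi-likelihood F test with genotype as the only term, over all 19736 genes kept. Benjamini-Hochberg adjustment covered all these genes, with calls made under 0.1. Log2 fold changes are Sirt7-/- over WT, ± SE. Log2 CPM used a prior count of 0.5. Total counts of 22007504 to 22181066 set the depth, so 1 CPM was about 22 reads. Promoter windows were read from GRCm39.

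The 38 genes and the other lists were chosen with earlier results of these data known. Values per library are given, in each role, for the 2 genes with the highest level per transcript length, the 2 with the largest fold change and any with an unadjusted p under 0.05. Mdc1 was added because it ranks above Trp53bp1 when all annotated exons are counted. Of the other repair genes, the text names the smallest p in each role, and of the marker and proliferation lists abundant genes. Etv5 and Utf1 are not the most abundant of their list. They are the markers of undifferentiated spermatogonia with an unadjusted p under 0.05 (edgeR). The alternatives exchanged the test for DESeq2 1.42.0 or limma-voom (limma 3.58.1), TMM for the size factors of DESeq2 or for total counts, the filter for none or for 1 CPM in 2 libraries, and the threshold for 0.05. They also blocked on the replicate number and dropped 1 library at a time.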

Additional observations from a re-analysis of the deposited data

How the results depend on the processing

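With 2 libraries per genotype, small differences cannot be seen, and 1 library can turn the sign of a small fold change. None of the 38 break repair genes and none of the 76 other repair genes was called under any of the alternatives run, and the smallest adjusted p of a break repair gene over them was 0.183, without Sirt7-/- replicate 2. The number of all genes called, 17 by edgeR at an adjusted p under 0.1, was 9 at an adjusted p under 0.05, 48 with DESeq2, 0 with no filter on low counts (2032 genes at an unadjusted p under 0.05), and 0 to 465 with a library left out, from 0 without WT replicate 1 or 2 (596 and 824 at an unadjusted p under 0.05) and 8 without Sirt7-/- replicate 1 to 465 without Sirt7-/- replicate 2. It was 12 with limma-voom and with total-count scaling, 18 with the size factors of DESeq2 and 19 with the filter of 1 CPM. The cause of these differences was not tested.

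With the replicate number as a block, 236 genes were called and 0 of the 38. The labels do not say that a number marks anything shared, and the deviations of same-numbered libraries correlated at 0.138 over 10057 genes, so the libraries were not treated as pairs.

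The sign held in every alternative for 18 of the 38 genes. It changed when a library was left out for the other 20, whose log2 fold changes then ran from -0.043 to 0.089 for Mre11a, -0.12 to 0.11 for Rad50, -0.033 to 0.10 for Rbbp8, -0.11 to 0.15 for Blm, -0.027 to 0.025 for Atr, -0.076 to 0.042 for Mdc1, -0.022 to 0.16 for Rnf8, -0.00035 to 0.17 for Brca1, -0.14 to 0.0081 for Palb2, -0.088 to 0.10 for Rad51c, -0.091 to 0.12 for Rad51d, -0.050 to 0.076 for Rad52, -0.14 to 0.055 for Rad54l, -0.18 to 0.084 for Rpa1, -0.030 to 0.13 for Rpa2, -0.12 to 0.025 for Fancd2, -0.17 to 0.087 for Xrcc6, -0.10 to 0.14 for Nhej1, -0.029 to 0.16 for Polq and -0.059 to 0.069 for Parp1. Values near 0 also changed sign for Rad50 (0.0025 with DESeq2, 0.0081 with no filter), Atr (0.0013 with DESeq2, 0.0069 with no filter), Rad51c (-0.0087 with total-count scaling, -0.00053 with the filter of 1 CPM), Rad52 (-0.00089 with total-count scaling) and Parp1 (-0.0067 with total-count scaling).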

Other observations

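The 5 break repair genes that share chromosome 11 with Sirt7 lie from 66.9 Mb (Rad50) to 19.1 Mb (Brca1) before it, and their log2 fold changes, Sirt7-/- over WT, ran from -0.04 ± 0.08 for Rpa1 to 0.08 ± 0.08 for Brca1, with adjusted p-values of 0.922 and 0.796 (edgeR). Npat, which encodes a coactivator of histone genes and starts 11 bases from Atm, had 3074 and 2783 counts in the Sirt7-/- libraries, against 2828 and 2928 in the WT libraries. Its difference within the Sirt7-/- pair, 0.14 on the log2 scale, lay near that of Atm, 0.12. Mcm4, a replication helicase gene that starts 489 bases from Prkdc, had 4891 and 4169 counts in the Sirt7-/- libraries, against 4255 and 4338 in the WT libraries, a difference of 0.23 within the Sirt7-/- pair beside 0.08 for Prkdc. In 2 of the 14 pairs the neighbour was lower in Sirt7-/- replicate 1 than in replicate 2 while the repair gene was higher. These were Zfyve21, the neighbour of Xrcc3, at -0.19 and Tmem167, the neighbour of Xrcc4, at -0.21 on the log2 scale.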
